A study of Mus musculus with 27 samples.

Results

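The genes described here are 10 regulators of blood formation that are also known from leukemia: the receptors Flt3 and Kit, the transcription factors Runx1, Myb, Tal1, Gata2, Spi1 and Lmo2, the elongation complex subunit Mllt3 and the survival factor Bcl2. They were taken by symbol from a table of read counts for 55416 genes, and each of the 10 symbols matched 1 row. The RNA came from whole brains of female mouse fetuses taken at day 12, day 15 or day 17 of gestation (d12, d15, d17), with the plug found on day 1. AKR/J is a short-lived inbred strain that develops leukemia, C57BL/6J is a long-lived inbred strain, and B6.Cg-Cav1tm1Mls/J (Cav1-null) is a short-lived strain congenic to C57BL/6J that lacks caveolin 1 in the whole animal. Every strain was sequenced on every day in 3 libraries, 27 in all, and the labels name no treatment. The study asked how brain gene expression develops in short- and long-lived mice, and here the question was how these regulators changed in an early phase, d12 to d15, and in a late phase, d15 to d17, and how strains differed on each day.

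In blood formation, Tal1, Lmo2 and Gata2 act together in a DNA-binding complex of stem and progenitor cells, and Runx1 is needed to form those cells. Spi1 drives myeloid cells, Myb keeps progenitors dividing, and Kit and Flt3 receive the stem cell factor and Flt3 ligand signals. Several of these genes have a separate life in the nervous system. Gata2 and Tal1 specify inhibitory neurons of the midbrain and the spinal cord, Spi1 and Runx1 are factors of microglia, which are the resident macrophages of the brain, and Kit and Bcl2 are expressed by neurons. In leukemia, Runx1, Tal1, Lmo2 and Mllt3 are best known as translocation targets, and Kit and Flt3 as receptors that acquire activating mutations.

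The gene counts of a library summed to 26363697 to 39759702 reads (median 29700746). Cav1 was at 0 to 0.509 CPM in the 9 Cav1-null libraries and at 9.25 to 39.9 CPM in the 18 others, where CPM are reads of the gene scaled to the size of the library. The neuronal marker Tubb3 was at 343 CPM or more in every library. A list of 10 brain markers of neurons and progenitors summed to 2596 to 2927 CPM in AKR/J d12, below the 4209 CPM or more of every other library, and to 7163 to 8104 CPM in C57BL/6J d15. Red cell genes made up 101849, 33434 and 198190 CPM of AKR/J d12 replicates 1, 2 and 3, and 18714 CPM or less of any other library. Markers of placenta, decidua and yolk sac summed to 63.1 to 2330 CPM on d12 in AKR/J, and reached 86.9 CPM in the other groups. Libraries also differed in the level of long against short transcripts: the median of long genes (from 8594 bases of exon) minus that of short genes (up to 3184 bases), on a log2 scale and relative to all libraries, was -0.54 to -0.27 in AKR/J d12, 0.35 to 0.37 in C57BL/6J d15 and between -0.10 and 0.30 elsewhere. In RNA of a whole tissue, fewer cells of a type and less RNA per cell cannot be told apart. The labels did not say whether fetuses shared a litter, so the p-values measure only the spread between these samples.

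Per kilobase of exon, the 10 regulators spanned a wide range of levels. Over the 27 libraries, Mllt3 had the highest mean, 13.3 CPM per kilobase, followed by Lmo2 at 10.2, Tal1 at 6.34, Kit at 5.84 and Bcl2 at 3.09 CPM per kilobase. Gata2 was at 1.29 CPM per kilobase and Myb at 1.00. The lowest were Spi1 at 0.663, Flt3 at 0.242 and Runx1 at 0.168 CPM per kilobase. Flt3 was counted from 1 to 160 reads per library, Runx1 from 7 to 256 and Spi1 from 14 to 175, so these 3 genes were measured with the least precision. Lmo2 varied least, by 1.94-fold between the lowest and the highest library, and Flt3 most, by 169-fold. Part of the exons of 8 regulators is shared with an annotated transcript of the opposite strand, with the largest shares in Gata2 (11.5%), Lmo2 (9.85%) and Myb (7.96%). The handling of strands in the counting is not given in the sources used here, so reads of these stretches cannot be assigned to one strand. The opposite-strand gene Spehd, which overlaps Gata2, had 6 to 50 reads of its own per library, and Gata2 had 55 to 1012.

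**Figure D1:**
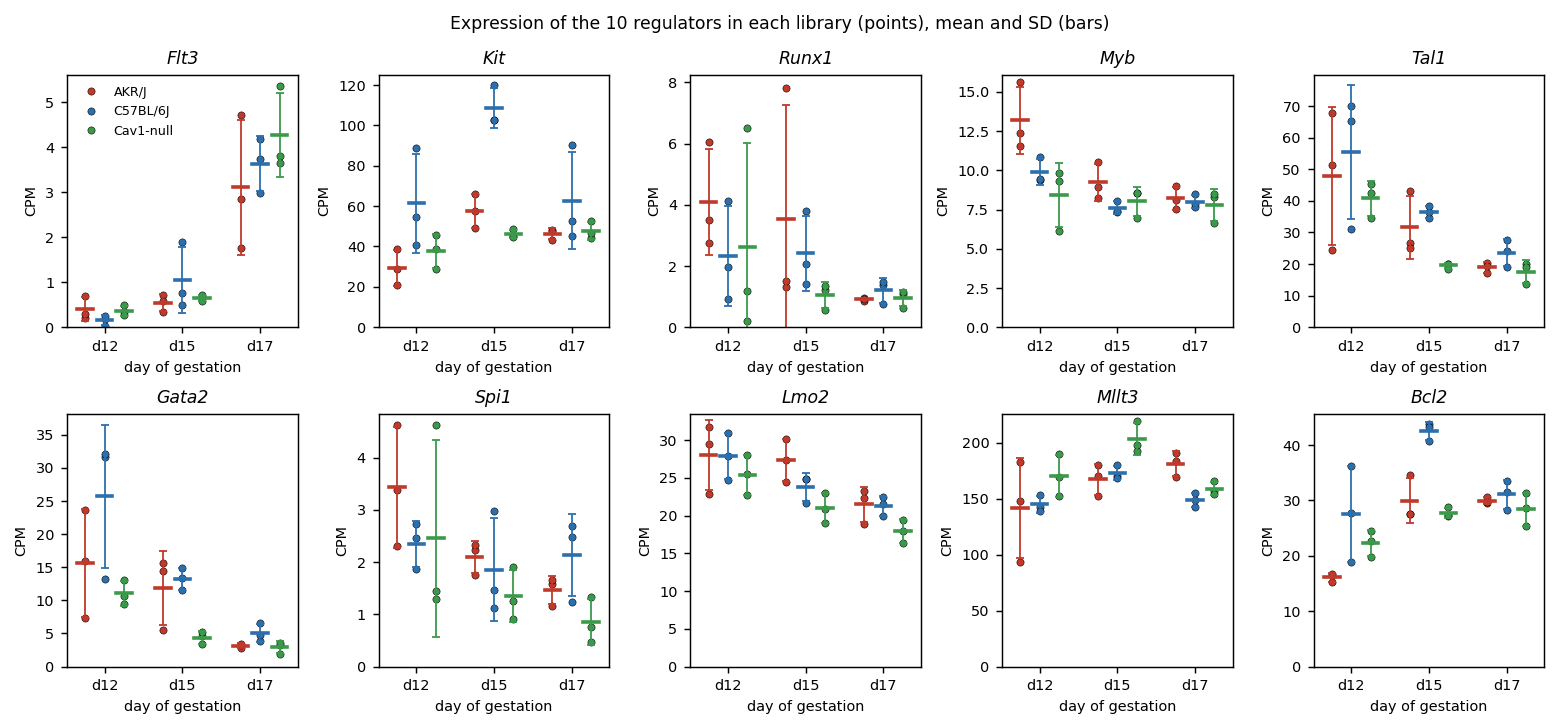
Expression of the 10 regulators in CPM (y axis, from 0) on each day (x axis), with color for the 3 strains. Points are the 3 libraries of a group, the horizontal bar is their mean and the vertical bar the SD, which is drawn down to 0 where it passes it. In each strain the mean of Flt3 is highest on d17 and those of Gata2 and Tal1 are higher on d12 than on d17, and Kit and Bcl2 are highest in C57BL/6J on d15.

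Changes between adjacent days were tested in models of 6 libraries, and a gene was called at an adjusted p under 0.05 over all genes tested. In the early phase, Kit and Bcl2 rose in AKR/J (2 of 10 regulators called, against 28.9% of 19935 genes tested), Gata2 and Tal1 fell in Cav1-null mice (2 of 10, against 23.4% of 19934 genes), and 0 of 10 were called in C57BL/6J (14.9% of 19154 genes). In C57BL/6J, 7 regulators had an unadjusted p under 0.05 in that phase, as had 6885 of the 19154 genes. DESeq2 called 4 regulators, and its share over all genes is not given here. Later, from d15 to d17, Flt3 rose in each strain. Beside it, Gata2 and Tal1 fell in AKR/J (3 of 10 called, against 22.1% of 19989 genes), Gata2 fell in C57BL/6J (2 of 10, against 13.0% of 19888 genes), and Mllt3 fell in Cav1-null mice (2 of 10, against 27.3% of 20245 genes). Libraries of both groups did not overlap in 12.5% to 65.3% of genes over the 15 comparisons of days or strains. The median log2 fold change of the 10 regulators lay between -0.31 and -0.14 in the 6 comparisons, beside medians of -0.04 to 0.03 over all genes tested. Both phases of a strain share its d15 libraries.

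Between strains, the calls were on d15. Cav1-null mice had lower Kit, Gata2, Tal1, Bcl2 and Runx1 and higher Mllt3 than C57BL/6J (6 of 10 regulators called, beside 58.6% of 19827 genes tested). AKR/J had lower Kit and Bcl2 than C57BL/6J (2 of 10, beside 41.1% of 19692 genes), and higher Gata2 and Tal1 and lower Mllt3 than Cav1-null mice (3 of 10, beside 19.3% of 20172 genes). These 3 comparisons share libraries in pairs. The C57BL/6J d15 libraries had the highest length trends as a group, 0.35 to 0.37 against -0.10 to -0.05 in Cav1-null d15, and the part of this trend in the d15 counts of the gene lists given further on was not tested. On d12, 0 of 9 tested regulators were called between AKR/J and C57BL/6J (28.6% of 19320 genes), 0 of 9 between Cav1-null and C57BL/6J (0.0% of 19475 genes, although 4309 genes had an unadjusted p under 0.05) and 0 of 10 between AKR/J and Cav1-null mice (19.6% of 19955 genes). On those 3 d12 comparisons, 3, 2 and 2 regulators had an unadjusted p under 0.05. Of all genes tested, 8231, 4309 and 6932 had such a p. DESeq2 called 1, 1 and 1 regulators, and its share over all genes is not given here. On d17, 0 of 10 were called in each comparison, where 0.742%, 0.0491% and 12.4% of genes were called in the same order. There, 1, 2 and 2 regulators had an unadjusted p under 0.05, and DESeq2 called 0 in each. Of all genes, 4275 of 20207, 1538 of 20358 and 5489 of 20285 had such a p. Myb, Spi1 and Lmo2 were called in 0 of the 15 comparisons. Differences between strains in the early change were called for 0.0711% of genes between AKR/J and C57BL/6J, 0.00472% between Cav1-null and C57BL/6J and 14.7% between AKR/J and Cav1-null mice, and in the late change for 0.00468%, 0.252% and 2.13%. Of the 10 regulators, 1 was called among these 6 interactions.

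**Figure D2:**
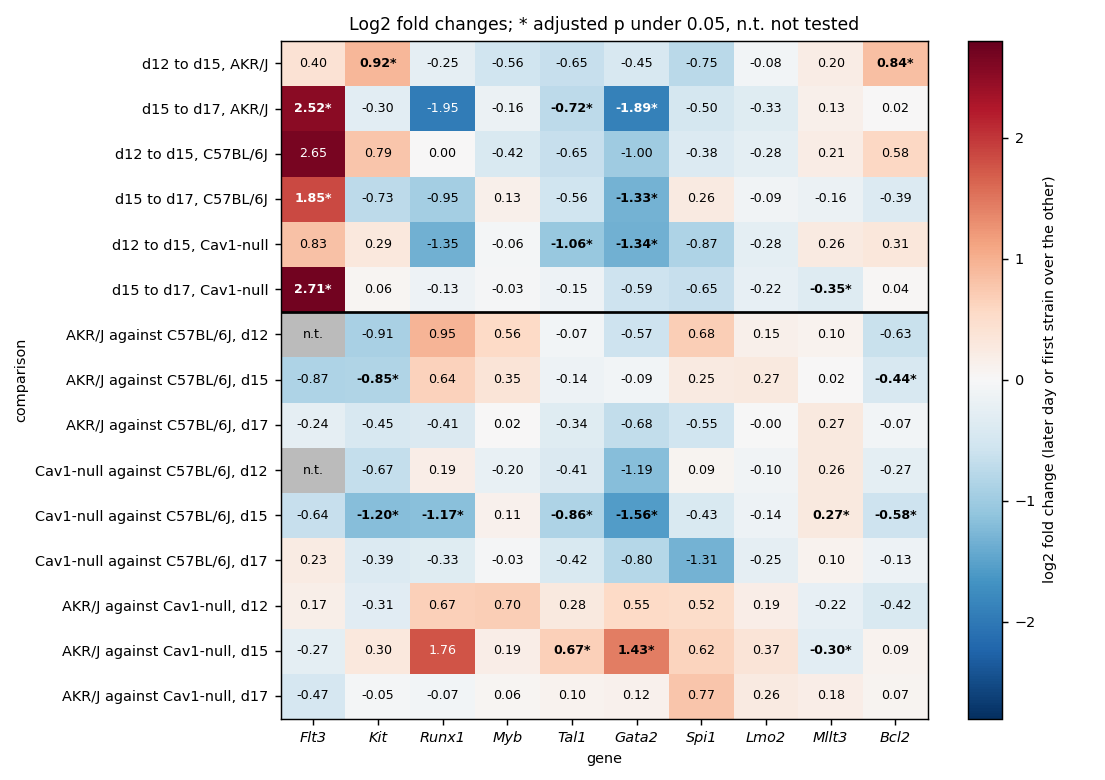
Log2 fold changes of the 10 regulators (columns) in 15 comparisons (rows), with the later day over the earlier above the line and the first strain over the second below it. Asterisks mark an adjusted p under 0.05 in edgeR's quasi-likelihood test, and n.t. marks genes with too few reads for the test. The rise of Flt3 from d15 to d17 stands in the same column in all 3 strains, with values of 2.52, 1.85 and 2.71, and Cav1-null against C57BL/6J on d15 is the row with the most asterisks, 6 of 10.

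Flt3 (ENSMUSG00000042817, GRCm39 chromosome 5, 147267551 to 147337483, minus strand), a tyrosine kinase receptor of early lymphoid and myeloid progenitors, was the regulator with the largest change over time. In AKR/J it was at 0.701, 0.197 and 0.305 CPM on d12, at 0.722, 0.336 and 0.575 CPM on d15 and at 1.75, 2.86 and 4.71 CPM on d17. C57BL/6J libraries held 0.0316, 0.189 and 0.254 CPM on d12, 0.756, 0.501 and 1.89 CPM on d15 and 2.98, 3.73 and 4.18 CPM on d17. Cav1-null libraries held 0.344, 0.490 and 0.265 CPM, then 0.662, 0.710 and 0.576 CPM, then 5.35, 3.80 and 3.66 CPM. In each strain all 3 libraries of d17 lay above all 3 of d15. The late rise was 2.52 ± 0.45 (SE) on the log2 scale in AKR/J (5.74-fold, adjusted p = 0.0064), 1.85 ± 0.47 in C57BL/6J (3.61-fold, adjusted p = 0.042) and 2.71 ± 0.27 in Cav1-null mice (6.54-fold, adjusted p = 1.1e-05). The call held without any 1 library in AKR/J and Cav1-null mice. In C57BL/6J it was lost without d15 replicate 1 or 2 or d17 replicate 2 or 3, with an adjusted p of up to 0.157, and 1 d15 library there (replicate 3, 1.89 CPM) stood above the other two. The late change was 0.69 ± 0.68 larger in AKR/J and 0.82 ± 0.55 larger in Cav1-null mice than in C57BL/6J, and neither interaction passed the test (adjusted p = 0.83 and 0.38). From d12 to d15 Flt3 in C57BL/6J changed by 2.65 ± 0.76 on the log2 scale, from libraries of only a few reads, with an adjusted p of 0.055. With the trend of the libraries in length and GC content removed, this change was called (2.53, adjusted p = 0.049). Flt3 had 1, 6 and 8 reads in these d12 libraries and passed the low-count filter only through those of d15. No early rise is therefore read from either value.

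The summed level of 16 microglia and macrophage markers overlapped between d15 and d17 in each strain. AKR/J had 85.3 to 117 CPM on d15 and 91.2 to 103 CPM on d17. C57BL/6J had 85.3 to 127 and 82.6 to 112 CPM, and Cav1-null mice 80.8 to 89.9 and 77.9 to 98.3 CPM. Of the 16, 2 were called higher late in AKR/J, Aif1 (1.23 ± 0.23, adjusted p = 0.0084) and P2ry12 (0.60 ± 0.14). In C57BL/6J 2 were, Aif1 (1.26 ± 0.33, adjusted p = 0.045) and Pf4 (1.09 ± 0.25), and 0 were called in Cav1-null mice. Over all genes, 11.6%, 7.46% and 14.5% were called higher, and the list medians were 0.05, 0.26 and 0.01. The neutrophil gene S100a9 also rose late in C57BL/6J (2.76 ± 0.74, adjusted p = 0.049), and the part of these cells in the Flt3 rise was not tested. Of the genes of myeloid cells, Mpo, an enzyme of neutrophil granules, reached 1.37 CPM and Elane 0.370 CPM, with medians of 0.0723 and 0 CPM over the libraries, while S100a9 reached 7.82 CPM and Lyz2, which macrophages also express, 43.3 CPM. The ligand Flt3l was at 0.337 to 2.79 CPM over all libraries. Over the 27 libraries the genes with a pattern most like that of Flt3, by the correlation of log2(CPM + 0.5), were Tmem229a (r = 0.942), Stxbp6 (r = 0.934) and Cmpk2 (r = 0.934).

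Kit (ENSMUSG00000005672, chromosome 5, 75735576 to 75817404, plus strand), the receptor for stem cell factor, stood apart in C57BL/6J on d15. It was at 103, 103 and 120 CPM there, at 57.7, 49.1 and 66.1 CPM in AKR/J and at 45.1, 44.7 and 48.4 CPM in Cav1-null mice. None of the groups overlapped, and the C57BL/6J libraries were higher than any other of the series. Kit was lower in AKR/J by 0.85 ± 0.11 on the log2 scale (0.555-fold, adjusted p = 0.00083) and lower in Cav1-null mice by 1.20 ± 0.07 (0.437-fold, adjusted p = 3.2e-07), and both calls held without any 1 library. Between AKR/J and Cav1-null mice, the d15 difference of 0.30 ± 0.10 was not called (adjusted p = 0.071).

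On d12, Kit was at 20.7, 38.8 and 28.7 CPM in AKR/J, 54.6, 88.7 and 40.9 CPM in C57BL/6J, and 38.5, 28.7 and 45.6 CPM in Cav1-null mice. All AKR/J libraries lay below the C57BL/6J libraries, with a log2 difference of -0.91 ± 0.32 that was not called (adjusted p = 0.063). On d17 it was at 48.3, 43.2 and 47.6 CPM in AKR/J, 90.3, 45.2 and 52.7 CPM in C57BL/6J and 52.6, 44.1 and 46.7 CPM in Cav1-null mice, where 1 C57BL/6J library was high, another lay within the range of both other strains and the third was level with the highest Cav1-null library and above those of AKR/J. In AKR/J, Kit rose from d12 to d15 by 0.92 ± 0.24 (1.90-fold, adjusted p = 0.024). That call was lost without d12 replicate 1 or 3 or d15 replicate 1 or 3, with an adjusted p of up to 0.0962. Between these days in AKR/J, 14 of 16 red cell genes and 10 of 12 placental, decidual and yolk sac genes fell. Of 10 brain markers, 5 rose and 1 fell, beside 14.8% of all genes higher and 14.0% lower. The part of these cells in the Kit rise was not tested.

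Kit moved with the length trend of the libraries. The 5 libraries with a trend above 0.28, namely the C57BL/6J d15 libraries, d12 replicate 2 and d17 replicate 1, were the 5 with the highest Kit, and the AKR/J d12 libraries had both the lowest trends and 3 of the 5 lowest Kit levels. With the trend in length and GC content removed from each library, the d15 difference from C57BL/6J was -0.65 in AKR/J (adjusted p = 0.0068) and -0.88 in Cav1-null mice (adjusted p = 2.3e-06), and the early rise in AKR/J was 0.62 and no longer called (adjusted p = 0.063). Endothelial markers, 12 genes, were also higher in the same C57BL/6J libraries, with sums of 273 to 373 CPM on d15, while AKR/J had 151 to 188 CPM and Cav1-null mice 108 to 130 CPM. The part of these cells in the Kit difference was not tested.

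**Figure D3:**
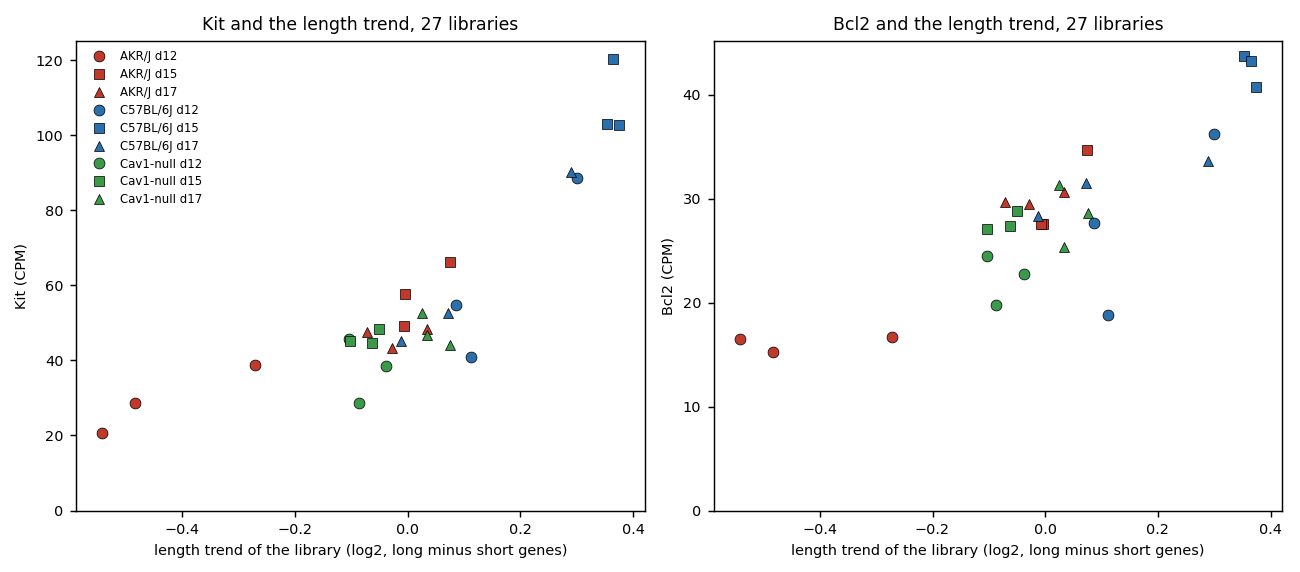
Kit (left) and Bcl2 (right) in CPM (y axis, from 0) against the length trend of each of the 27 libraries (x axis, log2 of long minus short genes), with color for the strain and shape for the day. The 3 C57BL/6J d15 libraries lie at the upper right, with 103 to 120 CPM of Kit, and the 3 AKR/J d12 libraries at the left, with 20.7 to 38.8 CPM.

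Of 12 ligands and cytokine receptors, Kitl, the stem cell factor itself, was the one that rose most often. From d12 to d15 it rose by 1.47 ± 0.27 on the log2 scale in AKR/J (adjusted p = 0.0069) and by 1.47 ± 0.12 in Cav1-null mice (adjusted p = 0.0002), and from d15 to d17 by 1.35 ± 0.14 in AKR/J, by 0.85 ± 0.17 in C57BL/6J and by 0.45 ± 0.08 in Cav1-null mice. In the early phase, 3 of 10 tested genes of the list rose and 2 fell in AKR/J, in C57BL/6J 0 were called, and in Cav1-null mice 2 rose, with list medians of 0.40, 0.13 and 0.16, beside 28.9%, 14.9% and 23.4% of all genes called in either direction. The strongest fall in AKR/J was that of Csf2rb, a shared receptor chain of myeloid cytokines, by 3.05 ± 0.50, in the strain and phase where 14 of 16 red cell genes fell. In the late phase 1, 1 and 2 of 10 rose and 0 fell, beside 22.1%, 13.0% and 27.3% of all genes called, and Il34, a ligand of microglia, had the largest rise in Cav1-null mice (1.03 ± 0.31, adjusted p = 0.023). On d15, Kitl was higher in Cav1-null mice than in C57BL/6J by 0.64 ± 0.06 (adjusted p = 1.1e-05), opposite in sign to its receptor Kit, and Csf1r, the receptor of microglia for Il34 and Csf1, was lower by 1.88 ± 0.19 (adjusted p = 1.1e-05). Of the 16 microglia and macrophage markers, 7 were higher and 4 lower in this comparison (median 0.27), with the largest rise in Tyrobp, and 26.8% of all genes were called higher and 31.8% lower.

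Gata2 (ENSMUSG00000015053, chromosome 6, 88170559 to 88184018, plus strand), a zinc finger factor of blood stem cells and of inhibitory neurons, fell in each strain in 1 of the 2 phases. In AKR/J it was at 7.34, 16.0 and 23.7 CPM on d12, 5.497, 15.6 and 14.5 CPM on d15 and 2.76, 3.29 and 3.47 CPM on d17. In C57BL/6J the values were 13.3, 31.7 and 32.1 CPM, then 13.4, 11.5 and 14.8 CPM, then 6.56, 3.82 and 4.74 CPM. In Cav1-null mice they were 9.40, 10.6 and 13.1 CPM, then 4.57, 5.20 and 3.35 CPM, then 3.31, 1.86 and 3.53 CPM. The d12 and d15 libraries overlapped in AKR/J and C57BL/6J and were apart in Cav1-null mice, and the d15 and d17 libraries were apart in AKR/J and C57BL/6J and overlapped in Cav1-null mice. Gata2 fell by 1.34 ± 0.23 on the log2 scale in the early phase in Cav1-null mice (adjusted p = 0.0041), and by 1.89 ± 0.37 in AKR/J (adjusted p = 0.0094) and 1.33 ± 0.24 in C57BL/6J (adjusted p = 0.017) in the late phase. The difference in late change between AKR/J and Cav1-null mice was -1.32 ± 0.48 and was not called (adjusted p = 0.14), and no other interaction of Gata2 was called. The early fall in Cav1-null mice held without any 1 library. The late fall was lost without d17 replicate 2 in AKR/J (adjusted p = 0.0544), and in C57BL/6J without any 1 of the d15 libraries or d17 replicate 3 (adjusted p up to 0.097).

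Tal1 (ENSMUSG00000028717, chromosome 4, 114913623 to 114928952, plus strand), a basic helix-loop-helix factor that binds DNA beside Gata factors, had nearly the same profile. It was at 24.5, 51.2 and 67.9 CPM on d12, 26.8, 24.97 and 43.2 CPM on d15 and 20.5, 17.1 and 19.2 CPM on d17 in AKR/J. C57BL/6J libraries held 31.1, 70.1 and 65.4 CPM, then 34.5, 36.5 and 38.3 CPM, then 27.6, 19.1 and 24.2 CPM. Cav1-null libraries held 34.5, 42.3 and 45.4 CPM, then 20.1, 20.04 and 18.5 CPM, then 13.5, 20.2 and 19.1 CPM. In Cav1-null mice the d15 libraries overlapped those of d17, while in AKR/J and C57BL/6J all d15 libraries stood above those of d17. Tal1 fell by 1.06 ± 0.12 in the early phase in Cav1-null mice (adjusted p = 0.00086), which held without any 1 library, and by 0.72 ± 0.20 in the late phase in AKR/J (adjusted p = 0.032), which was lost without any 1 of the d17 libraries, with an adjusted p of up to 0.139 and a change between -0.86 and -0.44, and also with all 27 libraries in 1 model. Its late change of -0.56 ± 0.16 in C57BL/6J was not called (adjusted p = 0.062).

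On d15, both genes were lower in Cav1-null mice than in C57BL/6J, Gata2 by 1.56 ± 0.18 (0.339-fold, adjusted p = 4.0e-05) and Tal1 by 0.86 ± 0.08 (0.552-fold, adjusted p = 7.0e-06), and both calls held without any 1 library. With the trend in length and GC content removed, the differences were -0.64 (adjusted p = 0.0053) and -0.38 (adjusted p = 0.0019). AKR/J was higher than Cav1-null mice on d15, by 1.43 ± 0.37 for Gata2 (adjusted p = 0.030) and 0.67 ± 0.18 for Tal1 (adjusted p = 0.035). Those calls were lost without any 1 of the Cav1-null d15 libraries, for Gata2 also without AKR/J d15 replicate 3, with adjusted p-values of up to 0.129, and that of Tal1 was also lost with all 27 libraries in 1 model and with the trend removed (0.57, adjusted p = 0.065). Endothelial markers, genes of vessel cells in which Tal1 and Gata2 are also active, differed on d15 too. Against C57BL/6J, 9 of 12 were lower and 1 higher in Cav1-null mice (median -1.36, beside 31.8% of all genes lower and 26.8% higher). In AKR/J against Cav1-null mice, 5 of 12 were higher and 0 lower (median 0.58, beside 9.6% higher and 9.7% lower). The part of these cells in the differences was not tested. Between AKR/J and C57BL/6J on d15, the differences were -0.09 ± 0.36 for Gata2 and -0.14 ± 0.19 for Tal1. With the trend removed they were 0.58 ± 0.33 and 0.18 ± 0.19, and none of these was called.

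Over the 27 libraries, Gata2 and Tal1 had the highest correlation of any pair of the 10 regulators (r = 0.916), and Irx3, a transcription factor of neural patterning, was the gene closest to both (r = 0.949 and 0.956). Next came Uncx (r = 0.945) and Laptm4b (r = 0.941) for Gata2, and Fzd10, a Wnt receptor (r = 0.953), and Uncx (r = 0.947) for Tal1. These libraries share strain, day and depth, so the value describes them only. A list of genes of the neurons that Gata2 and Tal1 specify, which also holds general inhibitory neuron genes such as Gad1, moved as well. Gata3, a late marker of these neurons and the sister gene of Gata2, fell early in Cav1-null mice (-0.77 ± 0.17, adjusted p = 0.011) and late in AKR/J (-1.10 ± 0.29, adjusted p = 0.029) and C57BL/6J (-0.84 ± 0.21, adjusted p = 0.040), and on d15 it was lower in Cav1-null mice than in C57BL/6J (-1.10 ± 0.11, adjusted p = 1.5e-05). Of the 10 genes of that list, 6 fell and 1, Gad1, rose early in Cav1-null mice, 5 fell late in AKR/J and 7 late in C57BL/6J. On d15, 8 were lower in Cav1-null mice than in C57BL/6J. The list medians were -0.85, -1.02, -1.08 and -0.996 in the same order. Over all genes, 11.8%, 10.4%, 5.58% and 31.8% were called lower in these comparisons. In the last of them, where the libraries also differed in the length trend, 8 of 10 general brain markers were lower and 2 higher (median -0.37). In the others between days, 4 of 9 tested fell late in Cav1-null mice (median -0.52, beside 12.8% of all genes), 2 of 10 fell early in C57BL/6J (median -0.24, beside 7.8%), and early in AKR/J 4 of the 10 rose and 1, Tal2, fell (median 0.63, beside 14.8% higher and 14.0% lower). With the trend removed, Gata2 was also called to fall early in C57BL/6J (-1.33, adjusted p = 0.033) and late in Cav1-null mice (-0.71, adjusted p = 0.045), and Tal1 late in C57BL/6J (-0.39, adjusted p = 0.045).

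Gata1, the red cell partner of Tal1, was at 6.97, 4.18 and 10.1 CPM on d12 in AKR/J and at 1.46 CPM or less in every other library. Gata2 was highest in C57BL/6J d12 replicates 3 and 2 (32.1 and 31.7 CPM), followed by AKR/J d12 replicate 3 (23.7 CPM), the library with the most red cell RNA. Tal1 was highest in C57BL/6J d12 replicate 2 (70.1 CPM), followed by AKR/J d12 replicate 3 (67.9 CPM) and C57BL/6J d12 replicate 3 (65.4 CPM). In AKR/J and Cav1-null mice, d12 replicate 3 had the highest Gata2 and Tal1 of its group. Without AKR/J d12 replicate 3, the early change in AKR/J was -0.02 ± 0.51 for Gata2 and -0.31 ± 0.37 for Tal1, and without Cav1-null d12 replicate 3 the early fall in Cav1-null mice was 1.18 ± 0.19 and 0.97 ± 0.11 and still called.

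**Figure D4:**
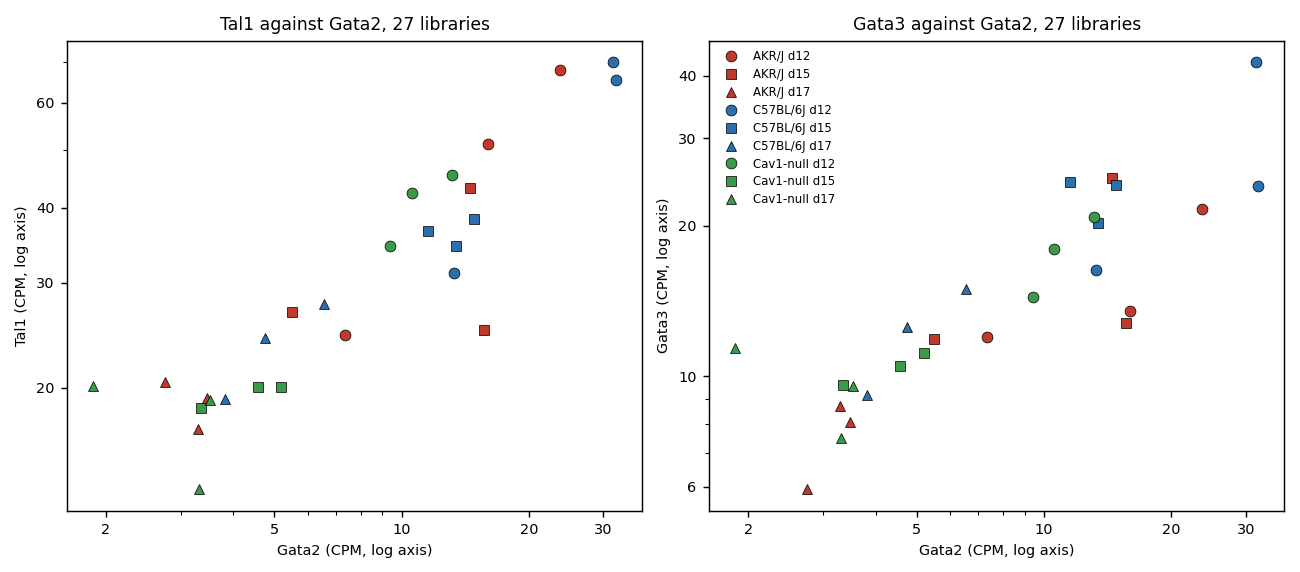
Tal1 (left) and Gata3 (right) against Gata2 in the 27 libraries, in CPM on log axes, with color for the strain and shape for the day. Most libraries of d12 lie at the upper right and those of d17 at the lower left, and the Cav1-null d15 libraries, with 3.35 to 5.20 CPM of Gata2, lie among those of d17.

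A start of Tal1 is shown here with the letters that Gata factors bind. Use of this start and binding to it were not tested. The promoter table holds 2 starts of Tal1, and the one with such letters is shown. The 250 bases before it, at chr4:114913373-114913622 of GRCm39 on the plus strand, run from 5′ to 3′ as follows, from the RefSeq promoter table of build GRCm38.p6 placed on GRCm39 by its sequence. Capitals mark TTATC, which reads GATAA on the other strand.
Tal1 promoter: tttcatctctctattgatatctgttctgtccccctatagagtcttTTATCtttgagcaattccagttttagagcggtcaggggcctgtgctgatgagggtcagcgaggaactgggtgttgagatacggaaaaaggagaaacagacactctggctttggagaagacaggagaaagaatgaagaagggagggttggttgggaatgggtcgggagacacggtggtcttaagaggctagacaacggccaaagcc
GATAA on either strand was found 1 time in this stretch. It was in 22.5% of the 32544 promoters of the table. The same stretch held no TGTGGT (the letters of Runx factors, in 14.0% of promoters), no CAGCTG (helix-loop-helix factors, 13.1%) and no GGAAGT (Spi1 and related factors, 19.8%), each searched on both strands. Of the 13 promoters of 8 regulators in the table, this was the only one with GATAA, and the other promoter of Tal1, at chr4:114914758-114915007, had none.

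Lmo2 (ENSMUSG00000032698, chromosome 2, 103788331 to 103812355, plus strand), the protein that bridges Tal1 and Gata factors, was the steadiest of the 10 and was not called in any comparison. Its group means were 28.0 ± 4.6, 27.3 ± 2.8 and 21.5 ± 2.4 CPM on d12, d15 and d17 in AKR/J (SD, n = 3), 27.8 ± 3.1, 23.8 ± 1.9 and 21.3 ± 1.3 CPM in C57BL/6J, and 25.4 ± 2.7, 21.0 ± 2.0 and 17.9 ± 1.6 CPM in Cav1-null mice. The means were lowest on d17 in each strain, but the largest change between adjacent days was -0.33 ± 0.12 on the log2 scale, in AKR/J in the late phase (adjusted p = 0.090). On d15 it was 0.37 ± 0.12 higher in AKR/J than in Cav1-null mice, and this was not called (adjusted p = 0.058). Over the 27 libraries it was correlated with Gata2 (r = 0.791) and with Tal1 (r = 0.686).

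The table of splice junctions held 5 junctions of Lmo2, and 3 of them join different upstream exon ends to one downstream exon, so that they count alternative first parts of the transcript. The sequences of these sites, read from GRCm39 on the plus strand, are as follows, with the first or last bases of the intron in capitals.
Lmo2 donor 1 (chr2:103800052-103800081): cttgcatttctgcagGTgcttatttcacat
Lmo2 donor 2 (chr2:103800591-103800620): ccgaccccggcgaagGTgcgaggggctcgg
Lmo2 donor 3 (chr2:103800696-103800725): ggaccgggatggaagGTtaagtcctgagca
Lmo2 acceptor (chr2:103800823-103800852): ctttggcgtttgaAGggagcgcggtgactg
Summed over the libraries, donor 1 took 554 of 1105 reads (50.1%), donor 3 took 380 (34.4%) and donor 2 took 171 (15.5%). In the group sums donor 1 lay between 32.5% in Cav1-null d15 and 65.2% in C57BL/6J d17. In single libraries, AKR/J d12 replicate 1 had 43 reads on donor 1 and 0 on the others, while AKR/J d12 replicate 2 had 14, 5 and 24. The authors removed junctions by filters, so that a 0 can stand for removed reads, and no test was made of these shares. Of the other regulators, Kit and Myb each had 6 junctions in the table, Mllt3 had 4, Gata2 had 3, Tal1 and Spi1 had 1, and Flt3, Runx1 and Bcl2 had 0.

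Runx1 (ENSMUSG00000022952, chromosome 16, 92398354 to 92623037, minus strand), the factor that starts definitive blood formation, was low and scattered. On d12 it was at 2.76, 3.49 and 6.05 CPM in AKR/J, 0.915, 1.95 and 4.13 CPM in C57BL/6J, and 1.17, 0.214 and 6.51 CPM in Cav1-null mice. On d15 it was at 1.32, 7.82 and 1.502 CPM in AKR/J, 3.78, 1.42 and 2.06 CPM in C57BL/6J, and 0.558, 1.23 and 1.36 CPM in Cav1-null mice. Single libraries made up most of the spread within a group, while on d17 all 9 libraries lay between 0.644 and 1.48 CPM. Its only call was a lower level in Cav1-null mice than in C57BL/6J on d15 (-1.17 ± 0.42, adjusted p = 0.035). That call was lost without C57BL/6J d15 replicate 1, where the change was -0.68, or without Cav1-null d15 replicate 1 or 2. It was also lost with library sizes alone, with all 27 libraries in 1 model and with the trend in length and GC content removed.

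The libraries with high Runx1 also had high levels of 10 genes of connective tissue and cartilage. These genes, a list made after the data were seen, summed to 749 to 1574 CPM in AKR/J d12, 490 to 1299 CPM in C57BL/6J d12, 1594 CPM in AKR/J d15 replicate 2, 5674 CPM in C57BL/6J d15 replicate 1 and 1410 CPM in Cav1-null d12 replicate 3, and to 96.4 to 201 CPM in the d17 libraries except C57BL/6J replicate 1 (1184 CPM, with 1.39 CPM of Runx1). The genes closest to Runx1 over the libraries were Ddr2, a collagen receptor (r = 0.918), Ccn4 (r = 0.913) and Fam114a1 (r = 0.908). The part of this tissue in the Runx1 values was not tested.

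**Figure D5:**
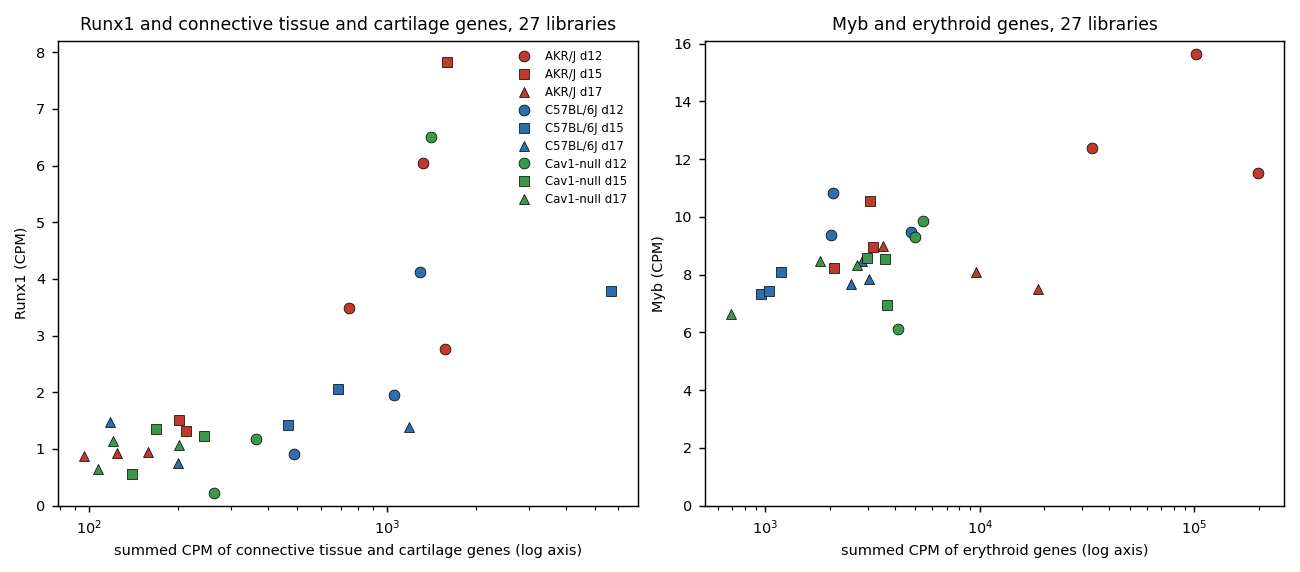
Left, Runx1 in CPM (y axis, from 0) against the summed CPM of 10 connective tissue and cartilage genes (x axis, log). Right, Myb in CPM against the summed CPM of 16 red cell genes (x axis, log). Each point is 1 of 27 libraries, with color for the strain and shape for the day. All 6 libraries with Runx1 above 3 CPM and a seventh at 2.76 CPM lie at 749 CPM or more on the left x axis, and the 3 AKR/J d12 libraries have the highest red cell levels and the highest Myb.

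Myb (ENSMUSG00000019982, chromosome 10, 21000834 to 21036883, minus strand), which keeps blood and neural progenitors in cycle, was highest in AKR/J on d12, at 15.6, 12.4 and 11.5 CPM. C57BL/6J d12 libraries held 9.37, 10.8 and 9.46 CPM and Cav1-null d12 libraries 9.85, 9.30 and 6.11 CPM, and none of them overlapped AKR/J. All other libraries lay between 6.64 and 10.5 CPM. The differences on d12 were not called, at 0.56 ± 0.24 against C57BL/6J (adjusted p = 0.11) and 0.70 ± 0.26 against Cav1-null mice (adjusted p = 0.099), nor was the early change in AKR/J of -0.56 ± 0.23 (adjusted p = 0.098). With the trend in length and GC content removed, Myb fell in the early phase in AKR/J by 0.78 ± 0.22 (adjusted p = 0.032) and in C57BL/6J by 0.50 ± 0.14 (adjusted p = 0.046), a setting chosen after seeing the data. The AKR/J d12 libraries were also those with the highest red cell levels, and within them the order of Myb (replicate 1 highest) was not that of the red cell sum (replicate 3 highest).

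Spi1 (ENSMUSG00000002111, chromosome 2, 90912562 to 90946101, plus strand), the master factor of macrophages and microglia, lay between 1.17 and 4.62 CPM in AKR/J. The range was 1.12 to 2.97 CPM in C57BL/6J, while Cav1-null libraries held 0.474 to 4.63 CPM. The highest libraries were Cav1-null d12 replicate 3 and AKR/J d12 replicate 3. The lowest group mean was 0.858 ± 0.44 CPM (SD, n = 3) in Cav1-null d17, against 2.13 ± 0.78 CPM in C57BL/6J d17, a log2 difference of -1.31 ± 0.45 that was not called (adjusted p = 0.58) and in which the libraries overlapped. Microglial genes summed to 76.7 to 252 CPM over the series, and Cx3cr1, a receptor of microglia, was present in every library, at 3.13 to 12.7 CPM.

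Of 27 partner transcription factors, from d12 to d15 AKR/J had 4 rises and 8 falls among 25 tested, C57BL/6J 3 and 3 among 23 and Cav1-null mice 2 and 8 among 23, and from d15 to d17 the counts were 2 and 8, 0 and 5, and 2 and 7, with list medians from -0.66 to -0.19. Over all genes, 14.8%, 7.08% and 11.6% rose and 14.0%, 7.8% and 11.8% fell early, and 11.6%, 7.46% and 14.5% rose and 10.4%, 5.58% and 12.8% fell late. Tcf3 and Tcf12, which are among the partners with which Tal1 binds DNA as a dimer, fell in the late phase in each strain. Tcf3 fell by 0.78 in AKR/J, by 1.22 in C57BL/6J and by 0.49 in Cav1-null mice. Tcf12 fell by 0.75, 0.78 and 0.48 in the same order. Ldb1, which links Lmo2 to the complex, fell with them, by 0.46, 0.75 and 0.50. Tcf4, also in the list, had a median of 517 CPM over the libraries, and its change is not given here. Cbfb, the partner of Runx1, fell late in AKR/J by 0.44 ± 0.11 and late in Cav1-null mice by 0.27 ± 0.09, and Mybl2, a relative of Myb in dividing cells, fell in each phase of each strain, by 0.71 to 1.47. The strongest falls from d12 to d15 were those of red cell factors in AKR/J, with log2 changes of -5.25 ± 0.65 for Gata1, -4.93 ± 0.61 for Gfi1b, -4.92 ± 0.45 for Klf1 and -4.73 ± 0.45 for Nfe2. On d15, 14 of 23 were lower and 2 higher in Cav1-null mice than in C57BL/6J (median -0.54), beside 31.8% and 26.8% of all genes, in libraries that also differed in the length trend and in endothelial markers, with Zfpm1, a cofactor of Gata proteins, lowest at -2.39 ± 0.15.

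Mllt3 (ENSMUSG00000028496, chromosome 4, 87687837 to 87951610, minus strand), a reader of acylated histones in the transcription elongation complex, was abundant in every library, from 93.7 to 220 CPM. On d15 it was at 180, 152 and 170 CPM in AKR/J, 171, 180 and 169 CPM in C57BL/6J and 193, 198 and 220 CPM in Cav1-null mice, whose libraries lay above all others of that day. It was higher in Cav1-null mice than in C57BL/6J by 0.27 ± 0.06 on the log2 scale (adjusted p = 0.0030), and lower in AKR/J than in Cav1-null mice by 0.30 ± 0.08 (adjusted p = 0.041). With the trend in length and GC content removed, neither was called, at 0.09 and -0.20, and neither was with all 27 libraries in 1 model. The AKR/J call was also lost without a filter and without AKR/J d15 replicate 2 or 3 or any 1 of the Cav1-null d15 libraries, with an adjusted p of up to 0.129.

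On d17, Mllt3 was at 191, 184 and 170 CPM in AKR/J, 143, 155 and 149 CPM in C57BL/6J and 157, 154 and 165 CPM in Cav1-null mice. Cav1-null mice thus went from the highest to a middle level, and the late fall of 0.35 ± 0.07 (adjusted p = 0.0033) held without any 1 library, was 0.39 with the trend removed and was lost with all 27 libraries in 1 model. In AKR/J the late change was 0.13 ± 0.09. This difference between strains in the late change, 0.47 ± 0.11, was the only interaction called among the 10 regulators (adjusted p = 0.046). Of the 12 fits without 1 library, 1 kept that call, and it was also lost with library sizes alone, with all 27 libraries in 1 model and with the trend removed. On d12, AKR/J libraries were spread from 93.7 to 182 CPM and overlapped both other strains.

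Of 17 genes of the MLL and elongation complexes, in the early phase 2 of 16 tested rose and 1 fell in AKR/J, and 1 fell in each of the other strains, with medians of 0.21, -0.02 and -0.19, where 28.9%, 14.9% and 23.4% of all genes were called in either direction. In the late phase 3, 1 and 2 fell and 0 rose, with medians of -0.20, -0.45 and -0.09, where 22.1%, 13.0% and 27.3% of all genes were called. On d15, 12 of 16 were lower and 0 higher in Cav1-null mice than in C57BL/6J (median -0.51, beside 31.8% of all genes lower), and 8 of 16 were lower and 1 higher in AKR/J (median -0.31, beside 22.3% lower), the largest difference being that of Aff3, at -1.39 ± 0.05 and -1.26 ± 0.08. Kmt2a, the MLL gene itself, was lower by 0.58 ± 0.05 and 0.63 ± 0.07, so that its sign was opposite to that of Mllt3 in Cav1-null mice. The summed level of the 17 genes was highest in libraries with a high length trend, at 3013 to 3190 CPM in C57BL/6J d15 and 3123 CPM in C57BL/6J d12 replicate 2. It was 1747 to 2110 CPM in AKR/J d12, where the trend was lowest. Other libraries did not follow this order. C57BL/6J d17 replicate 1, with a trend of 0.29, had 2550 CPM, and AKR/J d17, with -0.07 to 0.03, had 1887 to 2089 CPM.

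Bcl2 (ENSMUSG00000057329, chromosome 1, 106465908 to 106642060, minus strand), the inhibitor of mitochondrial apoptosis, was correlated with Kit over the 27 libraries (r = 0.891). It was at 16.5, 16.7 and 15.2 CPM on d12, 27.6, 27.6 and 34.7 CPM on d15 and 30.7, 29.5 and 29.7 CPM on d17 in AKR/J. C57BL/6J libraries held 27.7, 36.2 and 18.9 CPM, then 40.7, 43.8 and 43.2 CPM, then 33.6, 28.3 and 31.5 CPM. Cav1-null libraries held 22.7, 19.8 and 24.5 CPM, then 27.1, 27.3 and 28.8 CPM, then 31.3, 28.6 and 25.4 CPM. The AKR/J d12 libraries were the 3 lowest and the C57BL/6J d15 libraries the 3 highest of the series. In AKR/J, Bcl2 rose by 0.84 ± 0.17 in the early phase (1.79-fold, adjusted p = 0.0094), a call that held with the trend in length and GC content removed (0.63, adjusted p = 0.021) and was lost without d15 replicate 3 (adjusted p = 0.053). Between these days 5 of 10 brain markers also rose and 1 fell in AKR/J (median 0.67), and 14 of 16 red cell genes fell. Over all genes, 14.8% were called higher and 14.0% lower. The part of these markers in the Bcl2 rise was not tested. On d15 it was lower than in C57BL/6J by 0.44 ± 0.09 in AKR/J (adjusted p = 0.0082) and by 0.58 ± 0.07 in Cav1-null mice (adjusted p = 3.5e-05). The former was lost without AKR/J d15 replicate 1 or C57BL/6J d15 replicate 2 (adjusted p up to 0.0526), and the latter held without any 1 library. With the trend removed they were -0.37 (adjusted p = 0.033) and -0.41 (adjusted p = 0.0004). The genes closest to Bcl2 were Robo2 (r = 0.968), Mtss1 (r = 0.947) and Kidins220 (r = 0.947), and each has a role in neurons.

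In the Bcl2 family of 14 other genes, Hrk, a neuronal promoter of apoptosis, rose in both phases in AKR/J (3.44 ± 0.44 and 1.07 ± 0.12) and Cav1-null mice (1.35 ± 0.20 and 1.12 ± 0.14) and in the late phase in C57BL/6J (0.78 ± 0.16). Bmf and Bcl2l11, which promote apoptosis as well, fell in the late phase in each strain, Bmf by 1.38 in AKR/J, by 1.47 in C57BL/6J and by 0.95 in Cav1-null mice, and Bcl2l11 by 0.79, 0.75 and 0.42 in the same order. From d12 to d15, AKR/J had 2 rises and 2 falls among 14 of the family tested, C57BL/6J 0 and 0 among 14, and Cav1-null mice 2 and 4 among 13. Of all genes, 28.9%, 14.9% and 23.4% were called in the same order. Of 13 tested from d15 to d17, AKR/J had 1 rise and 3 falls, C57BL/6J 1 and 2, and Cav1-null mice 2 and 3, with medians between -0.09 and 0.13, beside 22.1%, 13.0% and 27.3% of all genes. On d15, 6 of 13 were lower and 2 higher in Cav1-null mice than in C57BL/6J (median -0.28), 8 of 13 called beside 58.6% of all genes, again between libraries that differed in the length trend. Bcl2l1, another inhibitor of apoptosis, was lower by 0.76 ± 0.06 and Mcl1 by 0.60 ± 0.05, in the same direction as Bcl2. Of the promoters of apoptosis, Bmf was lower by 0.97 ± 0.21, Bcl2l11 by 0.78 ± 0.10, Bbc3 by 0.66 ± 0.13 and Bak1 by 0.30 ± 0.11, and Bad and Bax were higher by 0.44 ± 0.09 and 0.36 ± 0.08.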

How the data were processed

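Strain and day in the labels set the groups of the 27 libraries. The authors deposited whole read counts per gene, without normalization, and their notes name FastQC, cutadapt, fastp, STAR, bedtools, edgeR and the build GRCm39. The deposited junction table holds read counts per splice junction after the authors' filters, and 96.4% of its 55670 junctions equal an intron of GENCODE M39. Versions, the tool used for counting and its strand setting are not given in the sources used here.

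For every comparison, 6 libraries entered edgeR's quasi-likelihood test (edgeR 4.0.16, R 4.3.3) after filterByExpr and TMM. Calls needed a p under 0.05 after Benjamini-Hochberg adjustment over all genes tested. Differences in change between strains were an interaction term over 12 libraries. Each SE was obtained from F, as the size of the log2 change divided by its root. CPM were scaled by TMM over 27 libraries, and likeness is Pearson's r of log2(CPM + 0.5) over the 23307 genes kept. The members and lists were chosen with earlier results of these data known. The rule for named genes was all 10 regulators, the 3 genes most like each, the largest rise and fall of each list in the comparisons described, and defining markers, and of those largest rises and falls the text gives only some. Genes named beyond that rule, such as Tcf3, Tcf12, Ldb1, Cbfb, Mybl2, Kmt2a, Bcl2l1, Mcl1, Bax, Bcl2l11, Bbc3, Bak1, S100a9, Lyz2, P2ry12 and Pf4, were chosen after their values were seen for their known link to a regulator or a cell type. A withheld item is not reported here and was left out of the list of brain markers.

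Alternatives were DESeq2 1.42.0, RLE size factors, library sizes alone, no filter, all 27 libraries in 1 model, a block by replicate number, and fits that left out 1 library. Removal of the trend with length and GC content, by offsets, was chosen after seeing the data. With 100 genes each changed 4-fold and 2-fold in simulated counts, 89% and 69% were recovered for d15 to d17 in AKR/J and 97% and 77% for Cav1-null against C57BL/6J on d15, with 8.67% and 7.94% of calls false. No pair of replicates agreed within sampling noise, with a mean chi-square per gene of 5.53 or more. Promoters were matched for 8 of 10 regulators, and those of Lmo2 and Spi1 were not matched. Plots were drawn with Python 3.11.15 and matplotlib 3.10.9.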

Additional observations from a re-analysis of the deposited data

Results flagged for a closer look

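Mllt3 changed differently from d15 to d17 in AKR/J and Cav1-null mice. The log2 change was 0.13 ± 0.09 in AKR/J and -0.35 ± 0.07 in Cav1-null mice, a difference of 0.47 ± 0.11 (adjusted p = 0.046, edgeR interaction over 12 libraries). The AKR/J libraries overlapped between the days, and all 3 Cav1-null libraries of d17 lay below those of d15. Of the 12 fits without 1 library, 1 kept the call, with differences between 0.41 and 0.54, and the call was also lost with library sizes alone, with all 27 libraries in 1 model and with the trend in length and GC content removed.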

How the results depend on the processing

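No call of a regulator changed direction under any setting. Of the 23 called values, DESeq2 and RLE size factors kept 23, no filter kept 22, library sizes alone 21, a replicate block 19, removal of the length and GC trend 17 and 1 model of all 27 libraries 16. Leaving out 1 library kept 99 of 144. The counts of called regulators that moved by over 1.5 times were as follows. DESeq2 called 4 in the early phase and 5 in the late phase of C57BL/6J (0 and 2 in edgeR), 1 in each d12 comparison of strains (0) and 6 between AKR/J and Cav1-null mice on d15 (3). Without a filter, 2 were called early in C57BL/6J, 1 between AKR/J and C57BL/6J and 1 between Cav1-null and C57BL/6J on d12, and in late interactions 1 for Cav1-null against C57BL/6J and 3 for AKR/J against Cav1-null. With 1 model of 27 libraries, 3 and 4 were called in the early and late phase of C57BL/6J, 1 late in Cav1-null mice, 2 between AKR/J and each other strain on d12, 1 between AKR/J and Cav1-null mice on d15 and 0 in the late AKR/J against Cav1-null interaction. With library sizes alone, 4 were called between AKR/J and C57BL/6J on d15, 1 and 5 between AKR/J and Cav1-null mice on d12 and d15, and 1 and 0 in their early and late interactions. With the length and GC trend removed, 3 were called early in C57BL/6J, beside 21.2% of all genes. Between AKR/J and Cav1-null mice, 1 was called on d15 (18% of genes) and 0 in their late interaction (2.1%). Smaller moves were 3 late in C57BL/6J (18.6%), 3 late in Cav1-null mice (32.6%) and 4 between Cav1-null and C57BL/6J on d15 (50.7%). Shares of all genes for the other settings and for fits without 1 library are not given here. Those counts alone therefore do not set the regulators apart. The cause of the moves in these counts was not tested.

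Leaving out 1 library gave 0 to 3 calls early and 1 to 4 late in AKR/J, 0 to 2 early and 0 to 5 late in C57BL/6J, and 2 to 4 early and 2 to 2 late in Cav1-null mice. Between AKR/J and C57BL/6J it gave 0 to 2, 1 to 3 and 0 to 3 on d12, d15 and d17, between Cav1-null and C57BL/6J 0 to 0, 5 to 6 and 0 to 1, and between AKR/J and Cav1-null mice 0 to 0, 0 to 4 and 0 to 0. The count of 3 on d17 came without C57BL/6J replicate 2. For the early and late interactions it gave 0 to 0 and 0 to 1 for AKR/J against C57BL/6J, 0 to 1 and 0 to 3 for Cav1-null against C57BL/6J, and 0 to 2 and 0 to 2 for AKR/J against Cav1-null.

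Replicate numbers did not pair the samples: in 0 of 15 comparisons were all 3 correlations of same-numbered libraries over 0.1, and they ranged from -0.38 to 0.30. With a replicate block, 1 regulator was called between AKR/J and C57BL/6J on d12 and 1 between AKR/J and Cav1-null mice on d15, and the late interaction of these strains had 0 calls. The 4 calls lost under it were those of Runx1 between Cav1-null and C57BL/6J on d15, of Tal1 and Mllt3 between AKR/J and Cav1-null mice on d15, and of Mllt3 in that interaction.

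Depth limited Flt3, Runx1 and Spi1, with as few as 1, 7 and 14 reads in a library. The d12 libraries differed in red cell and placental genes within a group, and Kit and Bcl2 moved with the length trend of the libraries, which on d15 cannot be told apart from the C57BL/6J strain.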

Other observations

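A junction of Mllt3 at 87792219 to 87798302 of chromosome 4 (GRCm39) was listed with 63 reads on d12 in AKR/J and 672 on d12 in Cav1-null mice, and with 0 reads in the other 7 groups, while the junction from 87798386 to 87949760, which lies next to it, had 275 to 811 reads in every group. It had reads in 4 of 27 libraries. A 0 can stand for reads that the authors' filters removed, so no test was made. Kit junctions carried 60 to 657 reads per library in all, with the highest sums in C57BL/6J d15, as in the gene counts.

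The Hox gene Hoxa9, which is active in the posterior body and in leukemias with MLL fusions, was at 20.7 CPM in AKR/J d12 replicate 1 and at 1.52 CPM in replicate 3, against 0 CPM in replicate 2. Mast cell protease Cpa3 reached 16.4 CPM in Cav1-null d15 replicate 2 and 11.3 CPM in AKR/J d15 replicate 2, with a median of 0.555 CPM over the series, while Kit, the receptor that mast cells need, was at 44.7 and 49.1 CPM in these libraries, each the lowest of its group.

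The genes with patterns most like the remaining regulators over the 27 libraries were Znfx1 (r = 0.954), Neo1 (r = 0.952) and Npc1 (r = 0.949) for Kit. For Spi1 they were Colec12 (r = 0.850), Angptl4 (r = 0.848) and Edn3 (r = 0.839), and for Lmo2 Dipk2a (r = 0.902), Hadh (r = 0.892) and Tbrg1 (r = 0.869). Myb was closest to Sh2d1b1 (r = 0.827), Gm11335 (r = 0.822) and Gm12184 (r = 0.817), and Mllt3 to Elavl2, a neuronal RNA-binding protein (r = 0.820), Bzw2 (r = 0.790) and Trappc3 (r = 0.781).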
